A study of Mus musculus with 6 samples.

Results

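The 63 histone genes described here were taken from the 17485 genes in the deposited counts by their symbols alone. The rule took every symbol that starts with Hist and a cluster number, and the symbols of variants outside the clusters that start with H1f, H2af or H3f3. Of these genes, 52 are clustered genes (6 for linker histone H1, 13 for H2A, 13 for H2B, 11 for H3 and 9 for H4) and 11 are variants (2 for H1, 7 for H2A and 2 for H3). The family was taken up because 2 of its members, Hist1h2bc and Hist3h2a, had been selected on their fold changes against control at 3 h and 6 h in these same libraries. The values of those 2 genes in those comparisons are therefore a description, given without a p-value.

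The cells were E14 mouse embryonic stem cells of 129/Ola background, kept in serum with leukaemia inhibitory factor. Treated cells received 250 µg/mL cycloheximide, which blocks translation elongation, in 0.007% ethanol for 3 h or 6 h, starting 24 h after seeding. Control cells received ethanol alone for 9 h, so the length of exposure differs between the groups along with the drug. Each of the 3 groups had 2 libraries of polyadenylated RNA, and no label says whether the 2 came from separate cultures, so the p-values below measure only the spread between these libraries, which may be technical.

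Clustered histone genes supply the core and linker histones that package newly replicated DNA, and their messenger RNAs (mRNAs) are normally made in S phase. These mRNAs usually end in a short stem-loop bound by the protein SLBP instead of a poly(A) tail, and they are degraded quickly when DNA synthesis stops. The variants H1.0, H1.10 (H1fx), H2A.Z, H2A.X, macroH2A and H3.3 come from genes outside the clusters. Their mRNAs can be polyadenylated and are made outside S phase as well. A selection for polyadenylated RNA therefore captures clustered histone mRNAs only so far as they carry a poly(A) tail.

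The annotated ends of the transcripts are shown first because they bear on which mRNAs such a selection can capture. In GENCODE M21 (GRCm38, the assembly called mm10 that the submitters' processing notes name), 62 of the 63 genes were found on the chromosome the files give. A stem-loop was searched on the sense strand as GGNNNNTNNNNNNNCC with 6-base arms that pair exactly. It was found in annotated transcripts of 36 of the 52 clustered genes, and in 519 of 21890 other protein-coding genes (2.37%). The forms below are written 5′ to 3′ in DNA letters, with the paired arms in capitals and the loop in lower case.
Hist3h2a stem-loop, shared by 19 clustered genes: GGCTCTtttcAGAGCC
Hist1h3f stem-loop, shared by 6 clustered genes: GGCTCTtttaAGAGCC
Hist1h4d stem-loop, shared by 6 H4 genes: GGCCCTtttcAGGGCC
Hist1h4i stem-loop, shared by 2 H4 genes: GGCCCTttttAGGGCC
Hist1h3g stem-loop: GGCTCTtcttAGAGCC
H2afx stem-loop: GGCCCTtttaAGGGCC
The last of these belongs to a variant gene. H2afx was the only one of the 10 annotated variants in which the stem-loop was found.

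Some clustered genes also have an annotated transcript that runs past the stem-loop to a polyadenylation signal, searched as AATAAA or ATTAAA in the last 50 bases. Such a signal was found in 13 of the 52 clustered genes, in all 10 annotated variants and in 80.8% of other protein-coding genes. The 30-base windows below show it in capitals for clustered genes whose RNA is described next, and for the variant H1f0 beside them.
Hist1h1c: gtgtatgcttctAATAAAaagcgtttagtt
Hist3h2a: aggtatatgcccAATAAAataagagtacgt
Hist2h2be: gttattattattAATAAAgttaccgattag
Hist2h3c1: ttttttaatcccAATAAAaatttaacacac
Hist1h2ae: cccagcttctccAATAAAtgggtcaatttt
H1f0: ttaaaactttaaAATAAAactggaaaggaa
In Hist3h2a the annotated transcript continued for 1643 bases after the stem-loop, in Hist1h1c for 840 and in Hist1h2ae for 151. In Hist2h3c1 a transcript continued for 1167 bases after it, and the signal shown comes from another annotated transcript of that gene. Hist2h2be had the signal and no stem-loop. The annotated transcript of Hist1h2bc held neither, and it joins 2 exons that span chr13:23684199-23692908 on the plus strand.

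RNA from the clustered genes as a group was higher after cycloheximide. Levels are given as CPM, counts divided by library sizes that were adjusted by the trimmed mean of M values (TMM). Summed over all 52 genes, with no filter on low counts, the level was 33.0 and 21.9 CPM in the control libraries, 172 and 178 at 3 h, and 326 and 362 at 6 h. The 3 groups did not overlap, and the ratio of means to control was 6.37 at 3 h and 12.5 at 6 h. Without Hist1h2bc and Hist3h2a the sums were 25.9 and 14.9 CPM in the controls, 82.8 and 81.5 CPM at 3 h, and 111 and 126 at 6 h, with ratios of 4.02 and 5.80. Of all histone counts, clustered genes gave 0.657% and 0.488% in the controls, a share of 3.89% and 3.54% at 3 h and of 7.53% and 7.94% at 6 h. These shares include Hist1h2bc and Hist3h2a and were not taken without them. The variants summed to between 3995 and 4997 CPM in every library, and their 6 h sums (3995 and 4192) lay below both control sums (4997 and 4459).

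**Figure D1:**
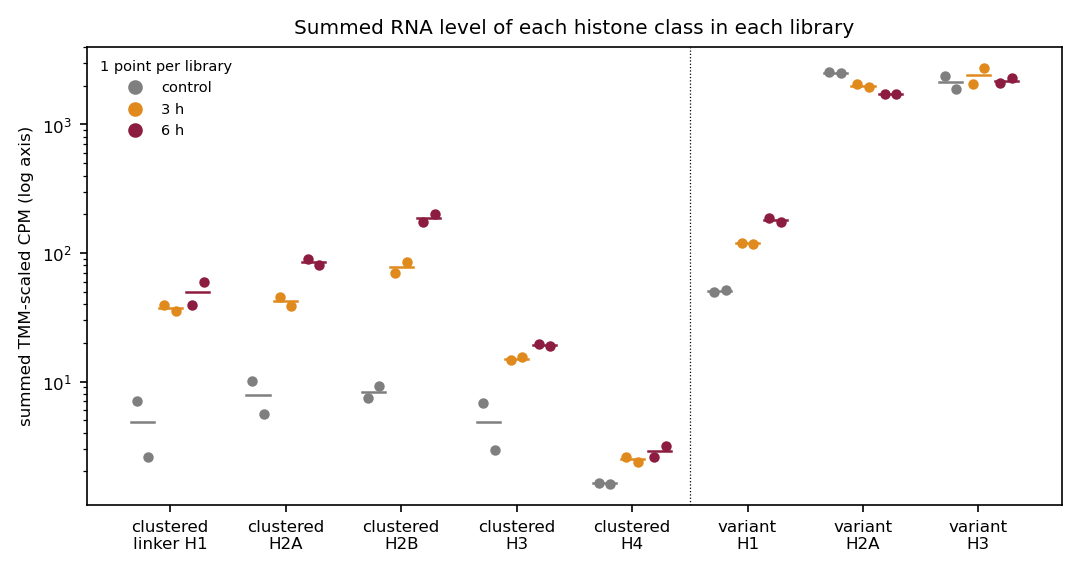
Summed TMM-scaled CPM (log axis) of each histone class in each library, with 1 point per library and a bar at the group mean. All clustered classes have both treated groups above the controls, with 6 h ratios of 1.79 for H4 and 22.5 for H2B. Variant H2A lies below its controls and variant H3 overlaps. The H2B and H2A sums include Hist1h2bc and Hist3h2a, which were selected on these changes, and the classes are not ranked.

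The number of clustered genes with at least 1 count also differed, with 34 and 23 genes in the controls, 39 and 43 genes at 3 h, and 45 and 44 at 6 h. The 6 h libraries were the deepest. After random thinning of every library to the smallest total, an alternative chosen after seeing the data, the numbers were 29 and 23, 36 and 38, and 41 and 40. The order of the groups in these numbers of genes was the same at equal depth. The thinned clustered counts were 264 and 179, 1599 and 1685, and 3317 and 3876. Those counts include Hist1h2bc and Hist3h2a, which were selected on their changes. They were not taken without these genes, so nothing is read from their order. In bulk RNA, fewer or more cells that express a gene cannot be told apart from less or more RNA per cell.

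Of the 63 genes, 35 passed the filter on low counts and entered the fit over 12755 genes, 25 of them clustered and 10 variants. Genes could pass through the treated libraries alone, and only 17 of the 63 (7 clustered) would have passed on the control libraries, so the shares below do not stand for the whole family. A gene was called where its adjusted p was under 0.05 in edgeR's quasi-likelihood test with Benjamini-Hochberg adjustment over all tested genes. At 3 h, 5 of the 33 tested histone genes other than Hist1h2bc and Hist3h2a were called higher and 1 lower, while 3.6% and 1.3% of all tested genes were. At 6 h, 15 of the 33 were called higher and 2 lower, with 14.8% and 14.3% over all tested genes. Between 6 h and 3 h, 1 of the 33 was called higher and 0 lower, with 0.455% and 1.18% over all tested genes. Hist1h2bc and Hist3h2a add 2 to the higher genes of each comparison, and nothing is read from their part because they were selected on these changes. Since many of the 33 passed the filter through the libraries in which they are high, their counts describe those genes and are no measure of the family. The 3 h and 6 h comparisons share their control libraries. As a description under the same limit, the median log2 fold change of the 23 clustered genes tested other than Hist1h2bc and Hist3h2a, of which 5 would have passed on the control libraries, was 1.38 at 3 h and 2.49 at 6 h. With those 2 genes it was 1.97 and 2.83. The 10 variants had medians of 0.02 and 0.13, and all tested genes 0.02 and 0.04. The counts at 3 h and between the treatment times moved with single libraries. With Hist1h2bc and Hist3h2a included, histone calls at 3 h were 8 and ranged from 4 without the first 3 h library to 13 without the first control library. Between 6 h and 3 h they fell from 3 to 0 without the first 3 h library or the second 6 h library and to 1 without either of the others of those groups, and at 6 h against control from 19 to 12 without either 6 h library.

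**Figure D2:**
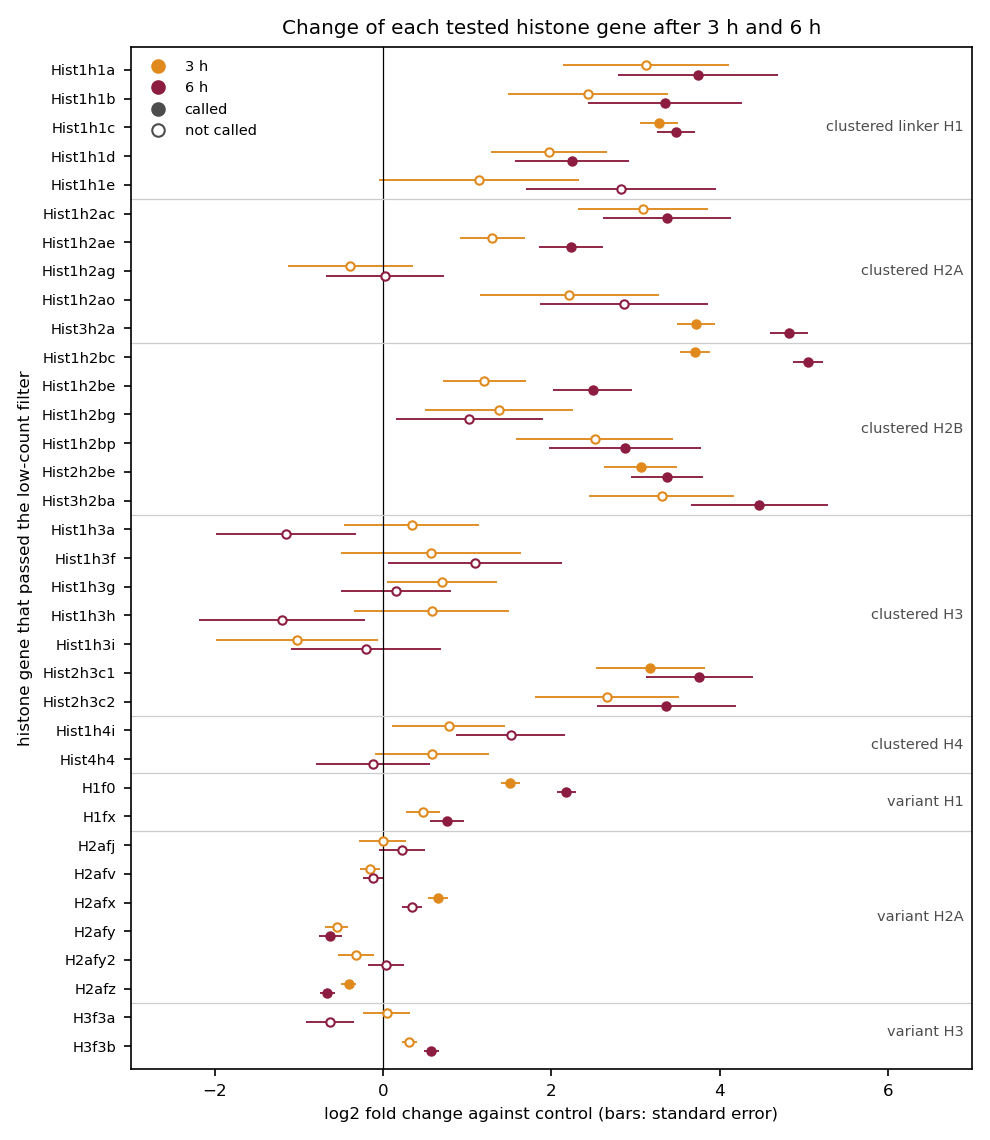
Log2 fold change against control (bars, standard error) of the 35 tested histone genes after 3 h and 6 h, grouped by class, with filled points for genes past the threshold. Hist1h2bc and Hist3h2a were selected on these values. Called changes are to the right of 0 in the clustered classes and on both sides among variants. Fitted values of Hist1h1a, Hist1h2ao, Hist1h2bp and Hist3h2ba rest on 2 or 3 control counts in all and depend on the prior count of the fit.

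Of the 5 tested clustered linker histone genes, Hist1h1c was called at both times. H1 binds the DNA that enters and leaves the nucleosome. Hist1h1c, which encodes H1.2 (ENSMUSG00000036181.2, chr13:23738808-23740367, 1 exon, plus strand), was at 3.56 and 2.32 CPM in the controls, 29.5 and 29.6 at 3 h, and 31.0 and 36.8 at 6 h. Every treated library lay above both controls, and the 3 h and 6 h libraries lay close together. On the log2 scale Hist1h1c rose by 3.28 ± 0.23 (SE, n = 2 libraries per group; edgeR adjusted p = 0.000206) at 3 h and 3.48 ± 0.23 (edgeR adjusted p = 6.11e-05) at 6 h. Between 6 h and 3 h it was 0.20 ± 0.18 (edgeR adjusted p = 0.616), so most of the difference from control was already present at 3 h, and no further change was detected.

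Hist1h1a, Hist1h1b and Hist1h1d, which encode H1.1, H1.5 and H1.3, were called higher at 6 h and not at 3 h. Hist1h1b gave 7 and 0 counts in the controls, 29 and 26 at 3 h and 51 and 122 at 6 h, and its log2 fold change at 6 h was 3.35 ± 0.92 (edgeR adjusted p = 0.0256). Hist1h1d was at 1.04 and 0.122 CPM in control and between 2.20 and 3.6 CPM in the treated libraries, and its 6 h log2 fold change was 2.24 ± 0.68 (edgeR adjusted p = 0.0371). Hist1h1a had 1 count in each control library and 47 and 29 at 6 h, a ratio of 14.6 with an exact 95% counting interval of 3.91 to 122.8 (edgeR adjusted p = 0.0183). These 3 calls were lost without single libraries. The adjusted p of Hist1h1a rose to between 0.0506 and 0.120 without any one control or 6 h library, that of Hist1h1b to 0.0523 without the second control library and 0.201 without the second 6 h library, and that of Hist1h1d to between 0.0574 and 0.178 without any one library other than the first control. Intervals on counts cover counting error only, since sequenced reads need not be independent molecules. Hist1h1e, which encodes H1.4, varied too much between libraries for a call, with 26 and 0 counts in the controls, 60 and 18 at 3 h and 69 and 352 at 6 h (edgeR adjusted p = 0.0915 at 6 h). Its exon overlaps that of Hist1h2be on the same strand. Hist1h1t, the testis H1, had at most 5 counts in a library and was not tested.

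Among the clustered H2A genes, 5 were tested, and 2 of the 4 other than Hist3h2a were called higher at 6 h. Hist3h2a (ENSMUSG00000078851.4, chr11:58954685-58956830, 1 exon, plus strand) lies in the small cluster on chromosome 11. It was at 2.22 and 1.71 CPM in the controls, 30.04 and 23.3 at 3 h, and 55.7 and 58.6 at 6 h. The groups did not overlap and followed the order control, 3 h, 6 h. Its log2 fold change was 3.72 ± 0.23 at 3 h, 4.82 ± 0.23 at 6 h and 1.10 ± 0.17 between 6 h and 3 h. Its exon overlaps Trim17 on the same strand, and 31.5% of its 50-base stretches occur in another annotated gene, so some of its reads cannot be assigned by sequence alone.

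Hist1h2ae was at 6.52 and 2.69 CPM in the controls, 11.7 and 11.96 at 3 h, and 28.2 and 16.9 at 6 h. Its groups did not overlap, although the libraries within control and within 6 h lay far apart. Of the 50-base stretches of Hist1h2ae, 43.2% are shared with other annotated genes. The log2 fold change of Hist1h2ae was 1.30 ± 0.39 at 3 h (edgeR adjusted p = 0.0869) and 2.23 ± 0.38 at 6 h (edgeR adjusted p = 0.00450). Hist1h2ac gave 1 and 4 counts in the controls, 38 and 31 at 3 h and 88 and 59 at 6 h. Its log2 fold change at 6 h was 3.38 ± 0.76 (edgeR adjusted p = 0.0124), and the adjusted p was 0.0730 without the first 6 h library and 0.0537 without the second. Hist1h2ao was not called at 6 h (edgeR adjusted p = 0.0557), with 2 control counts in all and 41 at 6 h, a ratio of 7.88 with a counting interval of 2.05 to 67.3. Hist1h2ag stayed between 0.520 and 0.882 CPM in all libraries, and its log2 fold change at 6 h was 0.03 ± 0.70 (edgeR adjusted p = 0.983).

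The clustered H2B genes had a summed ratio to control of 22.5 at 6 h, and most of that sum came from Hist1h2bc. Since Hist1h2bc was selected on its change, the class is not ranked against the others. Hist1h2bc (ENSMUSG00000018102.5, chromosome 13) was at 4.89 and 5.25 CPM in the controls, 59.4 and 72.7 at 3 h, and 159 and 177 at 6 h. The 3 groups did not overlap. Its fitted log2 fold change was 3.71 ± 0.17 at 3 h, 5.06 ± 0.18 at 6 h and 1.35 ± 0.14 between 6 h and 3 h. In total counts this was 109 in the controls, 2179 at 3 h and 9440 at 6 h. Of the 50-base stretches of Hist1h2bc, 30.6% are shared with other annotated genes, 220 in all.

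Hist2h2be, in the chromosome 3 cluster (ENSMUSG00000068854.7, chr3:96221119-96223738, 1 exon, plus strand), shares no 50-base stretch with another annotated gene. It was at 0.667 and 0.489 CPM in the controls, 5.17 and 4.85 at 3 h, and 4.95 and 7.55 at 6 h. Both treated groups lay above the controls and overlapped each other. Hist2h2be rose by 3.06 ± 0.43 (edgeR adjusted p = 0.00868) at 3 h and 3.38 ± 0.43 (edgeR adjusted p = 0.00135) at 6 h on the log2 scale, and the 3 h call was lost without the first 3 h library (adjusted p = 0.0555). Hist1h2be was called at 6 h, where its log2 fold change was 2.49 ± 0.47 (edgeR adjusted p = 0.00645, and 0.0559 without the second 6 h library). Hist3h2ba, the neighbour of Hist3h2a on chromosome 11, was called at 6 h (edgeR adjusted p = 0.00543) from 3 control counts in all, a ratio of 22.6 with a counting interval of 7.59 to 110.4. Hist1h2bp shares 45.3% of its 50-base stretches with other annotated genes. It was called at 6 h (edgeR adjusted p = 0.0401) from 3 control counts in all, a ratio of 7.43 with a counting interval of 2.42 to 37.1. That call was the least stable of the family: it was lost without any one of the 6 libraries (adjusted p from 0.0756 to 0.275). Hist1h2bg was not called (6 h log2 fold change 1.03 ± 0.87, edgeR adjusted p = 0.402).

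The clustered H3 genes divided by chromosome. Both tested genes of the chromosome 3 cluster were called higher at 6 h and none of the 5 tested on chromosome 13, a split that was seen in the values and was not tested. Hist2h3c1 was at 1.48 and 0 CPM in the controls, 6.78 and 9.07 at 3 h, and 11.7 and 12.1 at 6 h. Its log2 fold change was 3.17 ± 0.65 (edgeR adjusted p = 0.0322) at 3 h and 3.76 ± 0.64 (edgeR adjusted p = 0.00438) at 6 h. The 3 h call was lost without any one treated library, with adjusted p from 0.0713 to 0.156. All of its 50-base stretches are shared with the overlapping annotated gene Gm20634. Of those of Hist2h3c2, 63.5% are shared, most of all with Gm20634 as well, so the calls of these genes may not be separate observations. The 5 tested genes on chromosome 13 share 49.3% to 93.9% of theirs with other annotated genes. Hist2h3c2 rose at 6 h by 3.37 ± 0.83 on the log2 scale (edgeR adjusted p = 0.0175, and 0.0851 and 0.0761 without the first and second 6 h library). On chromosome 13, Hist1h3a, Hist1h3f, Hist1h3g, Hist1h3h and Hist1h3i had log2 fold changes from -1.20 to 1.09 at 6 h, each from at most 74 counts in a library, and their adjusted p-values ran from 0.323 to 0.890. The standard errors of these 5 genes were 0.65 to 1.03 on the log2 scale, with low counts and libraries of a group that could lie far apart. Hist1h3f, for example, had 21 and 0 counts in the controls and 74 and 32 at 6 h. Changes of that size and larger could be missed, so the lack of a call does not show that these genes were unchanged.

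The H4 genes gave the fewest counts. Their sum was 1.63 and 1.59 CPM in the controls, 2.58 and 2.37 at 3 h, and 2.61 and 3.14 at 6 h, with both treated groups above the controls. Of 9 genes, Hist1h4i and Hist4h4 were tested and neither was called. Hist1h4i had 9 and 4 counts in the controls and 39 and 55 at 6 h, a log2 fold change of 1.51 ± 0.65 (edgeR adjusted p = 0.112). Hist4h4, the single clustered gene on chromosome 6, was not called either (log2 fold change at 6 h -0.12 ± 0.68, edgeR adjusted p = 0.915).

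The 28 genes that were not tested were 27 clustered genes and H2afb1, and none had more than 19 counts in a library. In 18 of them both control libraries were at 0. Of these 18, Hist2h2bb gave 4 and 19 counts at 6 h, Hist1h2ak gave 10 and 6, and Hist1h4d gave 8 and 7. The total of Hist2h2bb came mostly from the second 6 h library. Hist1h2bb had 11 counts in control and 12 in the deeper 6 h libraries, a ratio of 0.419 with a counting interval of 0.169 to 1.05.

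**Figure D3:**
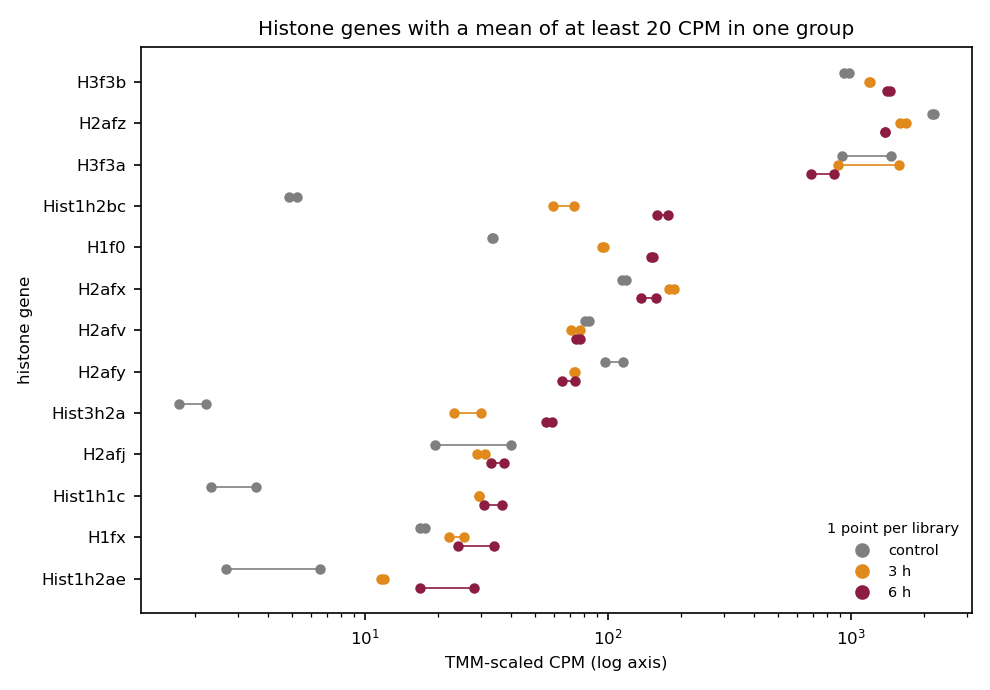
TMM-scaled CPM (log axis) in each library for the 13 histone genes with a mean of at least 20 CPM in one group, with 1 point per library and a line joining the libraries of a group. Both treated groups lie above the controls in Hist1h2bc, Hist3h2a, Hist1h1c, Hist1h2ae, H1f0, H1fx, H2afx and H3f3b. In H2afz, H2afy and H2afv both lie below the controls, and H2afv was not called. H3f3a and H2afj have wide groups.

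The variant linker histones also rose. H1f0 encodes H1.0, a replacement linker histone known to accumulate in cells that stop dividing (ENSMUSG00000096210.2, chr15:79028450-79030504, 1 exon, plus strand). It was at 33.3 and 33.6 CPM in the controls, 94.4 and 96.4 at 3 h, and 153 and 149.7 at 6 h. The 2 libraries of each group nearly coincided and the groups were well apart. H1f0 rose by 1.51 ± 0.12 (edgeR adjusted p = 0.000341) at 3 h and 2.18 ± 0.12 (edgeR adjusted p = 3.29e-05) at 6 h on the log2 scale. From 3 h to 6 h H1f0 rose by 0.67 ± 0.11 on the log2 scale (edgeR adjusted p = 0.0283), a call that was lost without any one treated library (adjusted p from 0.167 to 0.217). H1fx was at 16.8 and 17.6 CPM in the controls, 25.6 and 22.1 at 3 h, and 34.0 and 24.1 at 6 h. It was called at 6 h and not at 3 h (6 h log2 fold change 0.76 ± 0.20, edgeR adjusted p = 0.0230), and the call was lost without the first control library (adjusted p = 0.0638) or the first 6 h library (0.173).

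The H2A variants went both ways. H2afz encodes H2A.Z, which is placed at promoters by chromatin remodellers, and it fell. It was at 2200.1 and 2153 CPM in the controls, 1688 and 1586 at 3 h, and 1375 and 1374 at 6 h. The groups did not overlap. The fitted change on the log2 scale was -0.41 ± 0.09 (edgeR adjusted p = 0.0370) at 3 h and -0.66 ± 0.09 (edgeR adjusted p = 0.00165) at 6 h. The 3 h call was lost without any one library other than the first control (adjusted p from 0.0577 to 0.214), and on library size alone the 3 h value was -0.18 (adjusted p = 0.201). H2afv, which encodes the closely related H2A.Z.2, was at 80.2 and 83.6 CPM in the controls, 76.5 and 70.4 at 3 h and 73.6 and 76.7 at 6 h, and was not called (log2 fold change at 6 h -0.12 ± 0.12, edgeR adjusted p = 0.474). Of the 50-base stretches of H2afz, 69.6% occur in other annotated genes, most of all in Tmcc1, against none of those of H2afv.

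H2afx, which encodes the variant phosphorylated at DNA breaks, was highest at 3 h. It was at 114 and 118 CPM in the controls, 178 and 186 at 3 h, and 158 and 136 at 6 h. Every treated library lay above the controls. It was called at 3 h (log2 fold change 0.65 ± 0.12, edgeR adjusted p = 0.0224) and missed the threshold at 6 h (0.34 ± 0.12, edgeR adjusted p = 0.0601). The difference between 6 h and 3 h did not pass either (-0.31 ± 0.12, edgeR adjusted p = 0.213), and the 3 h call was lost without either 3 h library (adjusted p = 0.115 and 0.151). H2afy, which encodes macroH2A1, was at 97.7 and 115 CPM in the controls, 72.3 and 73.1 at 3 h, and 64.5 and 73.4 at 6 h. All treated libraries lay below the controls. Its log2 fold change was -0.55 ± 0.14 at 3 h (edgeR adjusted p = 0.0563) and -0.63 ± 0.14 at 6 h (edgeR adjusted p = 0.0109). The 6 h call was lost without the first 6 h library (adjusted p = 0.0817) and on library size alone (-0.27, adjusted p = 0.165). H2afy2, the gene for macroH2A2, was between 10.6 and 17.1 CPM in all libraries with overlapping groups, and was not called.

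H2afj was at 39.9 and 19.4 CPM in the controls, 31.1 and 28.8 at 3 h, and 33.0 and 37.2 at 6 h. The control libraries differed from each other more than the groups did, and no change was called (edgeR adjusted p = 0.578 at 6 h).

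The genes for H3.3, the H3 variant deposited outside replication, differed in their calls. H3f3b was at 933 and 985 CPM in the controls, 1188 and 1192 at 3 h, and 1401 and 1452 at 6 h. Its groups were ordered and did not overlap. Log2 fold changes were 0.31 ± 0.09 (edgeR adjusted p = 0.0795) at 3 h and 0.57 ± 0.09 (edgeR adjusted p = 0.00332) at 6 h. H3f3a was at 1467 and 916 CPM in the controls, 885 and 1568 at 3 h, and 686 and 852 at 6 h. Replicates of H3f3a differed 1.60-fold in control and 1.77-fold at 3 h, and its 6 h value of -0.63 ± 0.28 was not called (edgeR adjusted p = 0.127). The difference between the 2 genes was not tested.

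The clustered genes were also summed by the annotated end of their transcripts. The first group was the 13 genes with a polyadenylation signal at an annotated end. Of these, 12 also hold the stem-loop, though not necessarily in the same annotated transcript. All 13 summed to 17.0 and 10.5 CPM in the controls, 89.7 and 87.1 at 3 h and 143 and 148 at 6 h. Their 6 h ratio was 10.6, and 7.50 without Hist3h2a. The 10 genes with the stem-loop only and an annotated end over 100 bases after it summed to 5.71 and 0.733, 14.3 and 8.15, and 14.3 and 24.0 CPM, a ratio of 5.95. The 14 genes with the stem-loop only and an end within 100 bases after it summed to 3.93 and 3.67, 4.84 and 4.97, and 4.46 and 4.18 CPM, a ratio of 1.14. The remaining 15 genes had neither in their annotation. Their ratio was 26.0 with Hist1h2bc and 4.03 without it. These groups were formed after the values were known, and the differences between them were not tested.

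**Figure D4:**
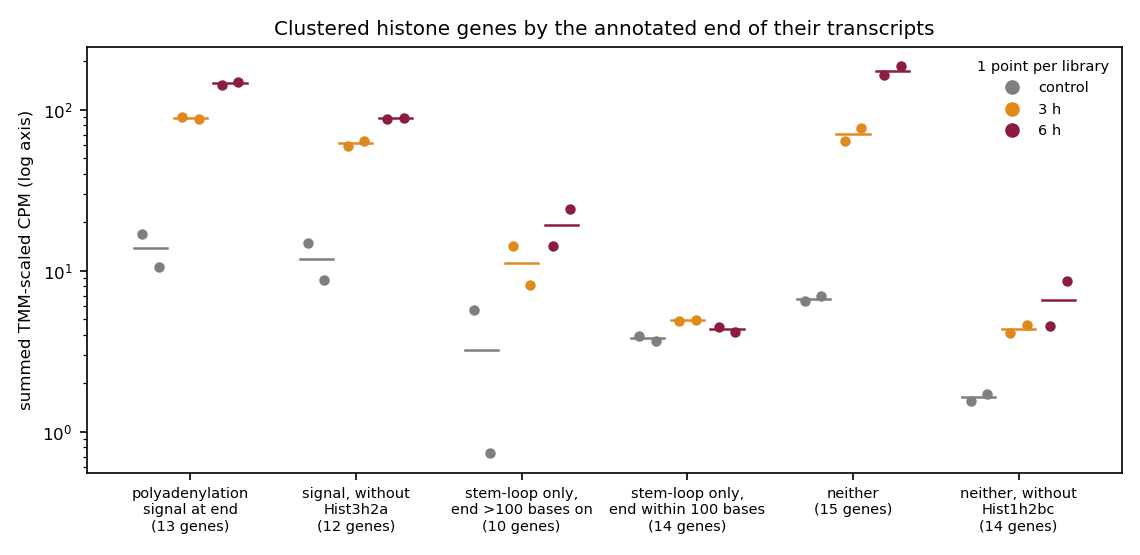
Summed TMM-scaled CPM (log axis) of clustered histone genes by the annotated end of their transcripts, with 1 point per library and a bar at the group mean. The sum of the 14 genes that end within 100 bases of the stem-loop stays between 3.67 and 4.97 CPM in all 6 libraries. Only 4 of the 14 were tested, and 6 h ratios of single members lay on both sides of control, as in Hist1h2ao (7.88) and Hist1h3a (0.406).

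Tested and untested clustered genes were also set side by side by their annotation, as a description, since the filter that divides them depends on the treated libraries too. A transcript longer than 1000 bases was annotated for 12 of 25 tested and 3 of 27 untested clustered genes, and a polyadenylation signal for 10 of 25 and 3 of 27. The median share of 50-base stretches found in another gene was 32.0% in tested and 55.0% in untested genes. How reads that fit several histone genes were counted is not given in the sources used here, so the part that this sharing plays in the low counts was not tested.

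The start of the genes was examined where RefSeq gives a promoter window (GRCm38.p6, 250 bases before the start to 50 after), which it did for 56 of the 63 genes. Clustered H2A and H2B genes often lie head to head and share the sequence between their starts. Hist1h2bc starts 250 bases from Hist1h2ac on the opposite strand, so the Hist1h2ac window shows the shared promoter of a pair that was higher after cycloheximide. The capitals below mark TATAAA (forward strand only), and CCAAT, ATTTGCAT and AAACACA (both strands) before the start.
Hist1h2ac and Hist1h2bc, chr13:23683910-23684209, minus strand: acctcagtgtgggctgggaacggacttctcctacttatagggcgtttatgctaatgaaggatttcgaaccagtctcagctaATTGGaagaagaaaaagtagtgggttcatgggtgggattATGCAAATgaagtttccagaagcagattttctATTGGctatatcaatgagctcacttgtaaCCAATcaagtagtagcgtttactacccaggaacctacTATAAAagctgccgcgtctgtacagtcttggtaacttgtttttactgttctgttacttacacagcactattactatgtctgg
Hist3h2a, chr11:58954435-58954734, plus strand: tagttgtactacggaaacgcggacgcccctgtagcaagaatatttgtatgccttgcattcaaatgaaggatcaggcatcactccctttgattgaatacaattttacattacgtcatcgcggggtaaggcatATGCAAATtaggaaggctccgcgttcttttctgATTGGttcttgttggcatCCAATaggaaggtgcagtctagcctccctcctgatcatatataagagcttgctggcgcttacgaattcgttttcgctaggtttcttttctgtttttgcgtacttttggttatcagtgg
Hist1h1c, chr13:23738557-23738856, plus strand: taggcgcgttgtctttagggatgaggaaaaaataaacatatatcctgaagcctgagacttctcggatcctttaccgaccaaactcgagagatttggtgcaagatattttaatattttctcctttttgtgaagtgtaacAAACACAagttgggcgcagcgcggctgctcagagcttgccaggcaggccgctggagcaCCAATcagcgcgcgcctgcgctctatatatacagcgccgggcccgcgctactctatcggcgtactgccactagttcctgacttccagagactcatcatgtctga
H1f0, chr15:79027962-79028261, plus strand: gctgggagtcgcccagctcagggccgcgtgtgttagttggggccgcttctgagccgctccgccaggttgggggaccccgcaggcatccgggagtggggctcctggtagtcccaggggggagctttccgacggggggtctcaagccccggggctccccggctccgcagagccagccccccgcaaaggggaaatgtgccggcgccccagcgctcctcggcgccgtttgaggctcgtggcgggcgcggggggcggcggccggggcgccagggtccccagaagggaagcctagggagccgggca
The Hist1h2ac window holds 1 TATAAA, 3 CCAAT and 1 ATTTGCAT, the octamer known from H2B promoters. That of Hist3h2a holds 2 CCAAT and 1 ATTTGCAT, and that of Hist1h1c 1 CCAAT and 1 AAACACA, an element known from H1 promoters. The H1f0 window holds none of the 4 motifs. It ends at position 79028261, before the GENCODE M21 start of H1f0 at 79028450, so the bases directly before that start were not searched. No 2 motifs overlap in these windows.

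Over the 47 windows of clustered genes, CCAAT was present in 83.0% (all promoters of the table, 33.8%), TATAAA in 44.7% (7.59%), ATTTGCAT in 29.8% (1.60%) and AAACACA in 19.1% (6.25%). ATTTGCAT was found in 7 of 13 H2A and 7 of 11 H2B windows and in none of the clustered H1, H3 and H4 windows. AAACACA was found in 5 of 6 H1 windows. The 11 H2B windows belong to 10 genes. Head-to-head partners such as Hist1h2ae and Hist1h2bg hold the same ATTTGCAT site, which counts in both windows, so the hits are not all separate sites. In windows of tested and untested clustered genes, CCAAT was present in 81.8% and 84%, TATAAA in 45.5% and 44%, AAACACA in 18.2% and 20%, and ATTTGCAT in 22.7% and 36%, differences that were not tested. Genes that share a promoter did not always have the same call, and the differences between partners were not tested. Hist1h2ae and Hist1h2bg start 175 bases apart, and at 6 h Hist1h2ae was called and Hist1h2bg was not. Hist2h2be and Hist2h2ac start 238 bases apart, and Hist2h2ac had at most 9 counts in a library and was not tested.

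Genes that act on histone mRNA, DNA replication and chromatin were read from lists in the same fit, and their counts stand against the shares of all tested genes called higher and lower, 3.6% and 1.3% at 3 h and 14.8% and 14.3% at 6 h. Of 20 tested genes for histone mRNA transcription, processing and decay, 1 was called higher at 3 h, and 2 higher and 2 lower at 6 h, in both directions a share below that of all tested genes at 6 h. Slbp, whose protein binds the stem-loop, was at 141 and 138 CPM in the controls, 169 and 164 at 3 h, and 183 and 185 at 6 h, and was called higher at 6 h (log2 fold change 0.40 ± 0.10, edgeR adjusted p = 0.0220). Hinfp, a transcription factor of H4 genes, rose by 1.19 ± 0.19 at 3 h (edgeR adjusted p = 0.0150) and by 1.33 ± 0.19 at 6 h (edgeR adjusted p = 0.00249) on the log2 scale. Zfp473, a component of the processing machinery, fell at 6 h (log2 fold change -1.12 ± 0.24, edgeR adjusted p = 0.00986). Npat, the coactivator of clustered histone genes, was at 52.4 CPM on average at 6 h against 46.8 in control (edgeR adjusted p = 0.572). Lsm11, a subunit of the U7 particle that cuts histone mRNA, was at 9.93 against 7.09 CPM (edgeR adjusted p = 0.152).

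Of 24 tested genes of DNA replication and S phase, 2 were called higher and 2 lower at 6 h, again below the share of all tested genes in both directions, and 1 higher at 3 h. Pcna, the sliding clamp, fell at 6 h (log2 fold change -0.49 ± 0.08, edgeR adjusted p = 0.00422), and Cdc6, a licensing factor, rose by 0.60 ± 0.12 (edgeR adjusted p = 0.00893). Ccne1, the cyclin that drives entry into S phase, was called lower at 6 h (-0.45 ± 0.12, edgeR adjusted p = 0.0254), and Ccne2 had at most 15 counts and was not tested. Of 16 tested genes of other cell-cycle phases, 1 was called higher and 9 lower at 6 h, 2 lower at 3 h, and 2 lower between 6 h and 3 h, where 1.18% of all tested genes were lower. Plk1, a mitotic kinase, had a log2 fold change of -1.23 ± 0.12 (edgeR adjusted p = 0.000485) and Cdkn1b, the inhibitor p27, one of 0.71 ± 0.15 (edgeR adjusted p = 0.0109). Of 19 tested histone chaperones and variant-exchange factors, 2 were called lower at 3 h, and 1 higher and 4 lower at 6 h, where 14.8% and 14.3% of all tested genes were called. Npm1 was the lower member with the smallest p (-0.67 ± 0.09, edgeR adjusted p = 0.00153) and Ino80 the higher one (1.13 ± 0.19, edgeR adjusted p = 0.00410). The part of cell-cycle position in the histone values was not tested.

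The 6 libraries held 9385447 to 27351079 counts, and the replicates of each group differed by more than sampling noise (chi-square per degree of freedom 18.7 to 27.7). Mitochondrial transcripts took 24.7% and 24.9% of control counts and 16.6% to 19.6% of treated counts, and with those genes removed 8, 19 and 3 histone genes were called at 3 h, at 6 h and between them, the same numbers as with them. All 11 embryonic stem cell markers were detected and tested, summing to between 5619 and 8346 CPM. At 6 h 5 of them were called lower and none higher, at 3 h 2 higher and 1 lower, and between 6 h and 3 h 4 lower. Of all tested genes, 14.3% were lower at 6 h, 3.6% higher and 1.3% lower at 3 h, and 1.18% lower between the times. The 6 h log2 fold change of Tfcp2l1 was -1.51 ± 0.13 (edgeR adjusted p = 0.000265). Markers of fibroblasts, the usual feeder cells, summed to between 4.71 and 10.5 CPM over the 6 of 8 listed genes found, and Pdgfrb was the only one of the 3 tested that was called at 6 h, higher. Markers of primitive endoderm summed to between 49.3 and 73.0 CPM over 7 genes, with Lama1 called lower at 6 h. Of the markers found, none was at 0 in all libraries, and Col3a1 and Postn of the fibroblast list were not analysed here. The part of these cell types in the histone values was not tested. Without TMM scaling, on library size alone, the median of all genes rises by 0.23 on the log2 scale at 3 h, by 0.36 at 6 h and by 0.13 between 6 h and 3 h. All changes above are relative to the TMM scale, and the called histone genes had the same sign on both.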

How the data were processed

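The 6 deposited tables hold unnormalized gene counts, whole numbers in 1 column per library, per the file headers. The genome build is mm10, per the submitters' processing notes. The aligner, the counter, strandedness, the annotation, the treatment of reads that fit several genes and any molecular identifiers are not given in the sources used here. The title says bulk and the design text says single-cell; with 1 value per gene and sample, each table was used as a bulk library.

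Counts were fitted with edgeR 4.0.16 (R 4.3.3) using quasi-likelihood F tests, TMM scaling, filterByExpr (minimum count 10, minimum total 15), a mean for each of the 3 groups and all 6 libraries, with 3 residual degrees of freedom. P-values are two-sided and Benjamini-Hochberg adjusted over the 12755 tested genes. Standard errors were taken as the log2 fold change divided by the square root of F, an approximation. The script was tested on simulated data. For genes with 1 to 3 control counts, ratios carry exact conditional 95% intervals. limma 3.58.1 and DESeq2 1.42.0 served as alternatives, and tables and figures were made with Python 3.11.15 (pandas 2.3.3, scipy 1.17.1, matplotlib 3.10.9).

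Tested members with a mean of at least 20 CPM in one group were named with all values, other tested members where called or by range, and the rest by number and highest count. From each list the called member with the smallest 6 h p in each direction was named, with Slbp, Npat, Lsm11, Pcna, Ccne1 and Ccne2; further members named were chosen after their values were seen. The members and lists were chosen with earlier results of these data known. Stem-loops, polyadenylation signals and shared stretches were found in GENCODE M21 transcripts.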

Additional observations from a re-analysis of the deposited data

Results flagged for a closer look

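The fitted difference between 6 h and 3 h of cycloheximide was 0.67 on the log2 scale for H1f0, past the threshold (edgeR adjusted p = 0.0283). It was 1.35 for Hist1h2bc and 1.10 for Hist3h2a, values that are only a description because these genes had been selected on their changes in the same libraries. Both 6 h libraries lay above both 3 h libraries in all 3 genes. The call of H1f0 was lost without any one of the 4 treated libraries.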

How the results depend on the processing

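Hist1h2bc and Hist3h2a aside, which were selected on their changes, no called histone gene changed direction under any alternative that was run. The calls of Hist1h1c and H1f0 against control at both times, and those of H2afz, H3f3b, Hist1h2ae, Hist2h2be, Hist2h3c1 and Hist3h2ba at 6 h, were kept under all of them. The number of genes called at 3 h, 625, became 1373 on library size alone, 1816 with no low-count filter, 1437 with DESeq2 and 218 with the 4 compared libraries only, and ranged from 108 to 1033 when single libraries were left out. Histone calls at 3 h, 8, became 16 with no filter and 13 with DESeq2, and ranged from 4 to 13. At 6 h, 3703 genes and 19 histone genes were called, with ranges of 1312 to 3578 and 12 to 19. Between 6 h and 3 h, 209 genes became 1063 with no filter, 692 with DESeq2, 508 with limma-voom, 126 with a replicate block and 563 with the 4 compared libraries, and ranged from 14 to 595. Histone calls there, 3, became 7 with no filter and ranged from 0 to 3. On library size alone 95.8% of the genes called at 3 h, 88.2% at 6 h and 56.5% between the times were higher, against 73.4%, 50.8% and 27.8% on the TMM scale. With no filter the corresponding shares were 67.2%, 53.9% and 44.1%, and the cause of these shifts was not tested. Leaving out a library leaves 1 group with a single sample, which is assumed to vary like the others. The replicate numbers were not treated as pairs: same-numbered libraries had deviations that correlated at 0.094, -0.024 and 0.017, and with the replicate block 6, 18 and 2 histone genes were called at 3 h, at 6 h and between them. Clustered genes with under 20 counts in a library are limited by depth.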
